A study of Thermothelomyces thermophilus ATCC 42464 with 8 samples.

Results

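The H3K9me3 domains at the start of chromosome 1 of the thermophilic fungus Myceliophthora thermophila were compared between strain ΔlaeA and the wild type (WT), border by border. The members were the peaks of the replicate 2 ChIP lists of both strains that start at or before position 3058073, where the ΔlaeA list used here ends. There were 164 peaks in ΔlaeA and 200 in WT, of 12393 peaks in the 4 lists of the series. Peaks of the strains that shared at least 1 bp, directly or through another peak, were joined into a group, which gave 176 groups.

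H3K9me3 was measured by chromatin immunoprecipitation and sequencing (ChIP-seq) with 2 ChIP libraries per strain. ΔlaeA lacks laeA, whose coding region was replaced by a selection marker, and WT is the parent with an intact laeA. Mycelia of both strains were grown on 2% glucose at 45 °C for 24 h. No line number or clone is given for ΔlaeA. The antibody is labelled ab8902 for the ΔlaeA libraries and ab8898 for the WT libraries, while the methods name ab8898 alone, so that strain and labelled antibody cannot be told apart. The submitters' design text names H3K79me3, whereas the title and the sample labels name H3K9. A peak list also cannot show whether laeA is absent, because it says nothing of unmarked bases.

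H3K9me3 is the histone mark of constitutive heterochromatin. In Neurospora crassa, a related fungus, it is laid down on AT-rich repeats by the methyltransferase DIM-5 and bound by the heterochromatin protein HP1, and it lies mostly outside active genes, near centromeres and chromosome ends. LaeA is a putative methyltransferase found in filamentous fungi as a global regulator of development and secondary metabolism. The edge of a called peak is the place where the ChIP signal crosses a threshold, so a border moves with the domain itself and with the threshold.

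The authors called peaks with MACS2 in each library and deposited, for each peak, its position, its pileup (how many fragments overlap at the summit), its fold enrichment (pileup relative to background) and its −log10 p and q. Peaks covered 754521 bp in ΔlaeA, or 24.7% of the first 3058073 positions, against 798665 bp or 26.1% in WT. The median peak was 1136 bp long in ΔlaeA and 1512 bp in WT. Fold enrichment ran from 1.28 to 7.01 in ΔlaeA and from 1.25 to 4.66 in WT. The lowest −log10 q was 2.12 in ΔlaeA and 1.83 in WT, the lowest pileup 125 in ΔlaeA and 128 in WT, and the lowest local background 95.8 in ΔlaeA and 97.9 in WT. Read totals of the libraries did not enter, and the depth behind a peak is unknown. The part that these list-wide differences have in the shifts below was not tested. With 1 list of this kind per strain there is no test between strains, and all values between strains are descriptions of these 2 libraries. The replicate 1 lists hold short peaks past an uncorrected p of 0.05 and are set beside the result at the end.

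Most domains were found in both strains at the same place. A single peak of ΔlaeA met a single peak of WT in 109 groups, which held 337513 bp in ΔlaeA and 362359 bp in WT. In 14 groups a WT peak was split in ΔlaeA (30 peaks in ΔlaeA against 14 in WT, with 105108 bp in ΔlaeA and 116645 bp in WT). In another 14 groups several WT peaks were merged in ΔlaeA (14 peaks in ΔlaeA against 35 in WT, with 210789 bp in ΔlaeA and 204311 bp in WT), and in 4 groups several peaks met several. A ΔlaeA peak without a WT partner occurred in 3 groups, or 1.83% of the ΔlaeA peaks. A WT peak without a ΔlaeA partner occurred in 32 groups, or 16.0% of the WT peaks. The median joint length, from the outermost left to the outermost right border of either strain, was 10338 bp for merged groups, 2996 bp for split groups and 1433 bp for 1 to 1 groups.

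The 1 to 1 groups were mostly shorter in ΔlaeA. The ΔlaeA peak was the shorter in 84 of 109 groups (77.1%) and the longer in 25. The median ΔlaeA peak of these groups was 979 bp and the median WT peak 1391 bp. The median change within a group, ΔlaeA minus WT, was -163 bp (quartiles -354 and -10 bp, range -1694 to 556 bp), and the median log2 ratio of the lengths was -0.19. Both sides took part. The left border of ΔlaeA lay a median of 41 bp to the right of the WT border (quartiles -13 and 165 bp), and the right border had a median shift of -50 bp (quartiles -162 and 13 bp), each towards the middle of the peak. A border was counted as kept when it shifted by at most 100 bp. Of the 218 borders, 133 were kept, 77 moved in and 8 moved out. Both borders were kept in 42 groups and both moved in in 16. The left border alone moved in, with the right one kept, in 20 groups, and the right border alone in 24, so that inward shifts were about as frequent on either side.

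The shortening went with the length of the domain. Of the 17 groups with a joint length of 5000 bp and longer, 7 were shorter and 10 longer in ΔlaeA, with a median change of 34 bp, and 29 of their 34 borders were kept. Together these long domains held 232030 bp in ΔlaeA and 231586 bp in WT. Among the 17 groups of 2000 bp to under 5000 bp, 12 were shorter, with a median change of -173 bp and 22 of 34 borders kept. Among the 38 groups of 1000 bp to under 2000 bp, 33 were shorter, with a median change of -270 bp, and 37 of 76 borders moved in. Among the 37 groups under 1000 bp, 32 were shorter, with a median change of -150 bp, and 26 of 74 borders moved in. The long domains thus had nearly the same edges in both libraries, and the borders that moved belonged mostly to short peaks.

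**Figure D1:**
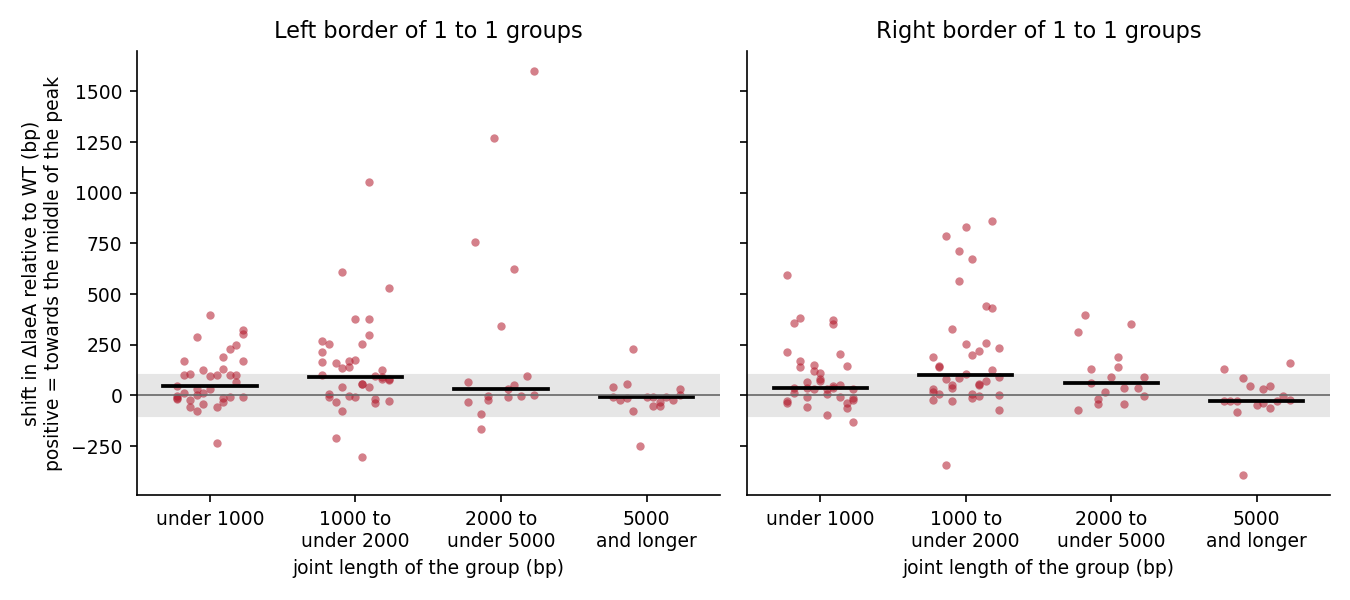
Shift of the left and right border of the 109 1 to 1 groups in ΔlaeA relative to WT, in bp, by joint length of the group. Each point is a border, positive values point towards the middle of the peak, the black line is the median and the grey band marks the borders counted as kept (within 100 bp). The points of the longest class sit mostly in the band (29 of 34 borders), whereas 37 of 76 borders of the class from 1000 bp to under 2000 bp lie above it.

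The shortening also went with the place of a peak in its list. Groups were divided by the mean of their places in both lists, as a share of the list, into an upper, a middle and a lower range of equal width. In the upper range, 11 of 26 groups were shorter in ΔlaeA, with a median change of 11 bp. In the middle range, 37 of 46 groups were shorter, with a median change of -201 bp. In the lower range, 36 of 37 groups were shorter, with a median change of -207 bp, and the median peak was 440 bp long in ΔlaeA and 798 bp in WT. When only peaks with a fold enrichment of at least 3 were matched, 21 groups were 1 to 1, some of them of another kind before. Of these 21, 28.6% were shorter in ΔlaeA, and the median shifts pointed outwards (-24 bp on the left, 25 bp on the right). The limit itself changed the kind of groups, as merged ones fell from 14 to 2. Length and strength go together in these lists, and their parts in the shortening were not told apart.

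The largest shortening in bp left a remnant of a WT peak at its right end. Between 2398909 and 2401171, WT had a peak of 2263 bp (fold enrichment 2.42, rank 61), and ΔlaeA kept 569 bp of it from 2400510 to 2401078 (fold enrichment 1.87, rank 91). The left border moved in by 1601 bp and the right one shifted by -93 bp, and the summits lay 7 bp apart. Of the 1601 bp, replicate 1 covered 0 bp in ΔlaeA and 0 bp in WT. The locus MYCTH_2295324 lies at this peak. As a ratio, the loss was larger in the peak from 2649674 (log2 ratio -2.44) and in one from 2377649 (-2.02, named after its value was seen) than here (-1.99). A similar loss on 1 side was seen in a stronger peak of rank 28 in both lists. It ran from 2864258 to 2867739 in ΔlaeA (3482 bp) and from 2862986 to 2867755 in WT (4770 bp), with the left border 1272 bp further in and a right shift of -16 bp. Replicate 1 did not show this loss, as it covered 537 bp of the 1272 bp in ΔlaeA and 388 bp in WT. The other 3 of the 5 largest shortenings were peaks of 288 bp in ΔlaeA against 1562 bp in WT (from 2649674), 705 bp against 1912 bp (from 2743645) and 1544 bp against 2698 bp (from 2827626). In these, both borders moved in. Over the joint length of the first, replicate 1 covered 0 bp in either strain. It covered 174 bp in ΔlaeA and 455 bp in WT at the second. At the third it covered 1082 bp in ΔlaeA and 1382 bp in WT. All 5 touch a gene, as do 77 of all 109 1 to 1 groups.

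The largest lengthenings were smaller, and none of the 5 touches a gene, whereas 32 of all 109 1 to 1 groups touch none. The peak from 2544534 to 2546323 measured 1790 bp in ΔlaeA and 1234 bp in WT, with a left shift of -211 bp and a right shift of 345 bp. It stood at rank 63 in ΔlaeA and 132 in WT. In the next, from 483749 to 495615, ΔlaeA had 11867 bp and WT 11398 bp, with an outward shift of 393 bp on the right. The remaining 3 grew on the left side, with left shifts of -305 bp (1516 bp in ΔlaeA, 1198 bp in WT, from 2734115), -234 bp (546 bp in ΔlaeA, 321 bp in WT, from 2789922) and -250 bp (10942 bp in ΔlaeA, 10739 bp in WT, from 2574179). The last of these was the peak of the second highest fold enrichment in ΔlaeA.

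At the other extreme, some borders were the same almost to the base. The peak from 3017020 to 3021584 in ΔlaeA, 4565 bp long, differed from its WT partner by 2 bp on the left and 4 bp on the right. The peak from 2412671 to 2414417 in ΔlaeA had shifts of -7 and -5 bp, and both summits lay at position 2412969. The peak from 1695705 to 1696292 in ΔlaeA had shifts of -6 and 14 bp. These 3 groups, chosen for the smallest summed shift, are among the 32 of 109 1 to 1 groups that touch no gene. Over all 1 to 1 groups the summits lay a median of 65 bp apart, and within 100 bp in 68 of 109 groups. The widest distance, 5372 bp, was within the longest of these domains, which had nearly the same borders in both strains (7207 to 41052 in ΔlaeA, 7166 to 41181 in WT).

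Gene bodies, which had no part in the matching, divided the 1 to 1 groups. Positions of protein-coding genes came from RefSeq, assembly ASM22609v1. The lists name no genome build, so that placing a peak at a gene takes the positions of the lists as those of this assembly. Of the 77 groups that touch a gene, 70 were shorter in ΔlaeA, with a median change of -242 bp, and 71 of their 154 borders moved in, 82 were kept and 1 moved out. Several of these groups lie at the same gene, MYCTH_2313501, and were counted singly. Of the 32 groups that touch no gene, 14 were shorter, with a median change of 11 bp, and 6 of their 64 borders moved in, 51 were kept and 7 moved out. The sets also differed in strength. The median rank of groups that touch a gene was 104 of 164 in ΔlaeA and 110 of 200 in WT. That of groups that touch none was 53.5 of 164 in ΔlaeA and 98 of 200 in WT. The parts of rank and of genes in the shortening were not told apart. The contrast was also seen within classes of length. From 1000 bp to under 2000 bp, 29 of 29 groups that touch a gene were shorter in ΔlaeA, against 4 of 9 that touch none. Under 1000 bp the counts were 25 of 26 with a gene and 7 of 11 without, from 2000 bp to under 5000 bp 11 of 13 with and 1 of 4 without, and at 5000 bp and longer 5 of 9 with and 2 of 8 without. Replicate 1 did not show it. There, 65.7% of the 1 to 1 groups that touch a gene and 73.1% of those that touch none were shorter in ΔlaeA. The division by genes was made after the values were seen.

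**Figure D2:**
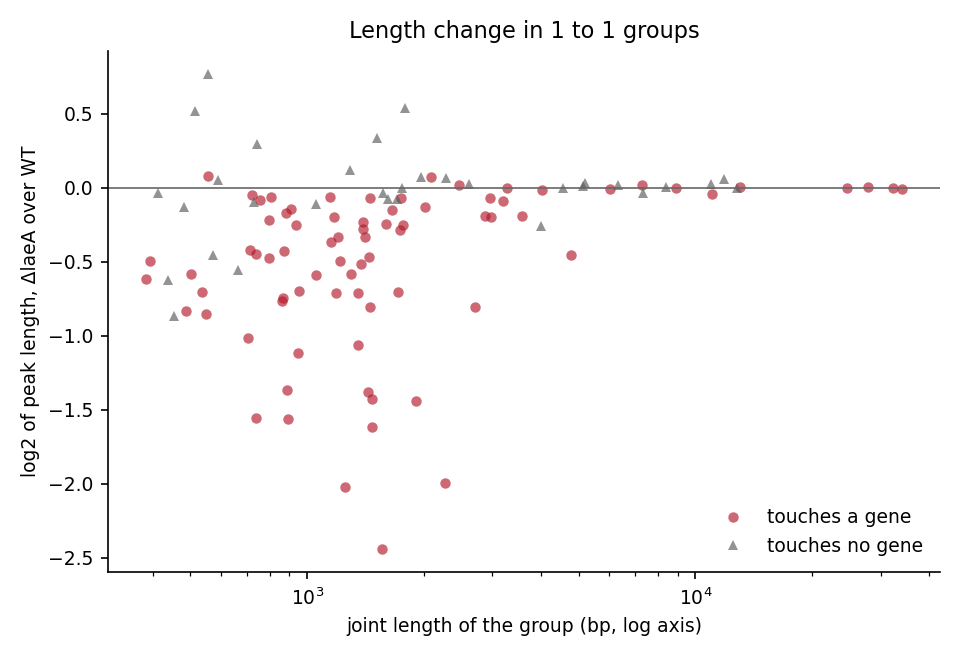
Length change of the 109 1 to 1 groups as log2 of the peak length in ΔlaeA over WT, against the joint length of the group in bp on a log axis. Circles are the 77 groups that touch a gene and triangles the 32 that touch none. Circles lie below 0 in 70 groups, triangles in 14, and both close to 0 at 5000 bp and longer.

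The strains were also compared by single bases. Gene bodies make up 50.5% of all bases of the compared stretch. They made up 9.95% of the 14244 bp marked in ΔlaeA only and 69.7% of the 58388 bp marked in WT only, beside 16.4% of the 740277 bp marked in both strains and 61.5% of the bases marked in neither. Among the bases of WT only, the share in genes was 72.2% at outer borders (34260 bp), 47.4% inside gaps of ΔlaeA (9070 bp) and 77.5% in WT peaks without a partner (15058 bp). The share of the bases of WT only was lower when weak peaks were left out. With peaks of a fold enrichment of at least 3 it was 25.8%, below the share of all bases. Few bases of WT only were left then, as 424763 of the 433594 bp in WT were marked in both strains. The limit kept 615434 bp in ΔlaeA, so it cut the lists unequally. In the replicate 1 lists over the same stretch, 32.8% of the bases of ΔlaeA only, 43.2% of those of WT only and 39.2% of those of both strains lay in genes, each below the 50.5% of all bases. Over all 7 chromosomes, the replicate 1 values were 22.4% for ΔlaeA only and 39.1% for WT only, with 46.5% of all bases in genes.

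Of the 729 protein-coding genes of the stretch, 120 were touched by a group. Of these 120, 98 were touched in both strains, and 22 in WT only. Of the 22, 20 were touched by WT peaks without a partner only. In the 98, the ΔlaeA peaks covered fewer bases of the gene at 67 genes, as many at 25 and more at 6. The largest loss at a touched gene was at MYCTH_2313501, which holds several groups (7193 bp in ΔlaeA, 10405 bp in WT). A description from the study's gene table was at hand for 10 of the 120. The largest loss among them was at MYCTH_2051640 (an Armadillo-type fold protein, a class of helical repeat proteins), with 1117 bp covered in ΔlaeA and 2458 bp in WT. A trypsin-like peptidase (MYCTH_2106471) had 377 bp in ΔlaeA and 1298 bp in WT, and a serine protease of family S28 (MYCTH_2106506) 1773 bp in ΔlaeA and 2415 bp in WT. The alpha subunit of a prolyl 4-hydroxylase (MYCTH_2051636), an enzyme that hydroxylates proline residues, had 285 bp in ΔlaeA and 879 bp in WT. The cyclin-like F-box gene MYCTH_2051335, near the chromosome end, had 345 bp in ΔlaeA and 888 bp in WT. Smaller differences were found at the L-lactate dehydrogenase gene MYCTH_110317 (689 bp in ΔlaeA, 713 bp in WT), which encodes an enzyme of pyruvate and lactate metabolism, and at the major facilitator transporter gene MYCTH_2030361 (1370 bp in ΔlaeA, 1476 bp in WT). The zinc finger gene MYCTH_2054216, inside a long merged domain, was covered over 765 bp in both strains.

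A gene of the LaeA family itself lies at a shortened peak. At MYCTH_2295350, which the study names laeB and describes as similar to laeA, the peak ran from 2431121 to 2431770 in ΔlaeA (650 bp, fold enrichment 1.62, rank 121) and from 2430983 to 2432337 in WT (1355 bp, fold enrichment 1.83, rank 130). As a share of its list, the peak stood at 73.8% in ΔlaeA and 65% in WT, a lower place in ΔlaeA. The left border shifted by 138 bp and the right one by -567 bp, both inwards. In replicate 1, 0 bp of the gene were covered in ΔlaeA and 215 bp in WT. Of the 32 genes that the study names by a locus number, 4 lie in the compared stretch, and laeB was the 1 touched by a group. Among all genes of the stretch, 120 of 729 were touched.

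Splits in ΔlaeA were found from strong to weak domains. The 20 gaps that ΔlaeA opened inside its groups (those of the groups with several peaks in both strains included) were 270 to 1119 bp long with a median of 369 bp, and 8 were over 500 bp. By the way groups are formed, each is bridged by a WT peak. The longest gap, from 2686237 to 2687355, lies at MYCTH_2114650 in a WT peak of 4809 bp, of which ΔlaeA kept 3037 bp in 2 peaks. Here both outer borders also moved in, with shifts of 288 and -365 bp. The next longest gaps were 693 bp from 1693729, 632 bp from 2858615 and 631 bp from 2371757. The last lies within the trypsin-like peptidase gene MYCTH_2106471, and WT replicate 1 covered it over 631 bp and ΔlaeA replicate 1 over 0 bp. There, ΔlaeA kept 554 bp of a WT peak of 1552 bp.

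The 3 strongest split groups kept both outer borders. In the domain from 262154 to 309028 (rank 3 in ΔlaeA, 12 in WT), a gap of 283 bp from 270671 divided 46592 bp of ΔlaeA peaks, against 46812 bp in WT, with outer shifts of -40 and 23 bp. In the domain from 2989095 to 3016792 (rank 5 in ΔlaeA, 6 in WT), the gap was 271 bp and the outer shifts 35 and 26 bp. In that from 396113 to 406478 (rank 6 in ΔlaeA, 5 in WT), the gap was 601 bp and the outer shifts -8 and 1 bp. None of these 3 gaps touches a gene.

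Among the 11 weaker split groups, 3 also kept both outer borders, with shifts of at most 41 bp on either side, and the other 8 had a border that shifted by more than 100 bp. The WT peak from 2451707 to 2453721 (rank 82) left 596 bp in ΔlaeA (rank 119), with a right shift of -1070 bp. The peak at MYCTH_2051640 from 2782622 left 1418 bp in ΔlaeA of 2402 bp in WT, with a left shift of 643 bp. That at the S28 protease gene MYCTH_2106506 (3083 bp in ΔlaeA, 4200 bp in WT) had shifts of 370 and -169 bp. Another 2 groups broke into 3 pieces. That from 2694758 kept 1575 bp in ΔlaeA against 2699 bp in WT, with both gaps at MYCTH_2295498. The other, from 1212430, kept 3349 bp in ΔlaeA against 3988 bp in WT, with outer shifts of 30 and -5 bp and neither gap at a gene. The remaining 4 split groups, from 1692194, 2415823, 2664098 and 2857971, changed by -728, -395, -646 and -623 bp. The outer borders of the first (12 and -23 bp) and of the last (32 and 41 bp) were kept. Over the 14 groups, the covered bases in ΔlaeA minus WT ran from -1772 to -220 bp, and 17 of 28 outer borders were kept.

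Merges were found in longer and stronger domains. The 14 merged groups stood between ranks 7 and 49 in ΔlaeA and between ranks 4 and 84 in WT, and 25 of their 28 outer borders were kept. The 27 WT gaps inside groups were 227 to 690 bp long, with a median of 266 bp, and 1 was over 500 bp. No gap between neighbouring peaks of either list was shorter than 227 bp, so the filled gaps were for the most part close to the narrowest that the lists hold. Of the 27 gaps present in WT, 2 touch a gene, against 9 of the 20 gaps present in ΔlaeA. When peaks up to 500 bp apart were joined before matching, 5 merged groups were left. Among gaps of up to 500 bp anywhere between neighbouring peaks, WT bridged 12 of 51 in ΔlaeA, and ΔlaeA bridged 26 of 69 in WT.

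The longest domain was a merged one. A single ΔlaeA peak of 57951 bp from 309554 to 367504 (fold enrichment 4.55, rank 23) took the place of 5 WT peaks from 309627 to 367445 (fold enrichment 3.78, rank 13), whose 4 gaps measured 234, 227, 229 and 266 bp. The outer shifts were -73 and 59 bp. Groups of 3 WT peaks each were merged from 503190 to 509313 (6124 bp in ΔlaeA, 5483 bp in WT), 902668 to 938130 (35463 bp in ΔlaeA, 34850 bp in WT), 1199615 to 1212122 (12450 bp in ΔlaeA, 11918 bp in WT) and 2881077 to 2902956 (21598 bp in ΔlaeA, 21248 bp in WT). In the last of these the left border nevertheless moved in by 282 bp. The widest gap filled, 690 bp from 411915, lay between the WT peaks from 406718 to 419122.

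The other 8 merged groups joined 2 WT peaks each. They start at 471899, 938373, 1681493, 2091912, 2475900, 2869902, 2982796 and 3023050, and their covered bases in ΔlaeA minus WT ran from 82 to 462 bp. The strongest, from 3023050, stood at rank 7 in ΔlaeA and 4 in WT. That from 938373 had the largest outward shift among merged groups, with the left border at -268 bp. Over all 14 merged groups ΔlaeA covered 6478 bp more than WT, whereas over the 14 split groups the net change was -11537 bp and over the 1 to 1 groups -24846 bp. The contrast of merged and split groups is in part set by how the kinds are defined. A filled gap counts as gain in a merged group, and an opened gap as loss in a split group.

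**Figure D3:**
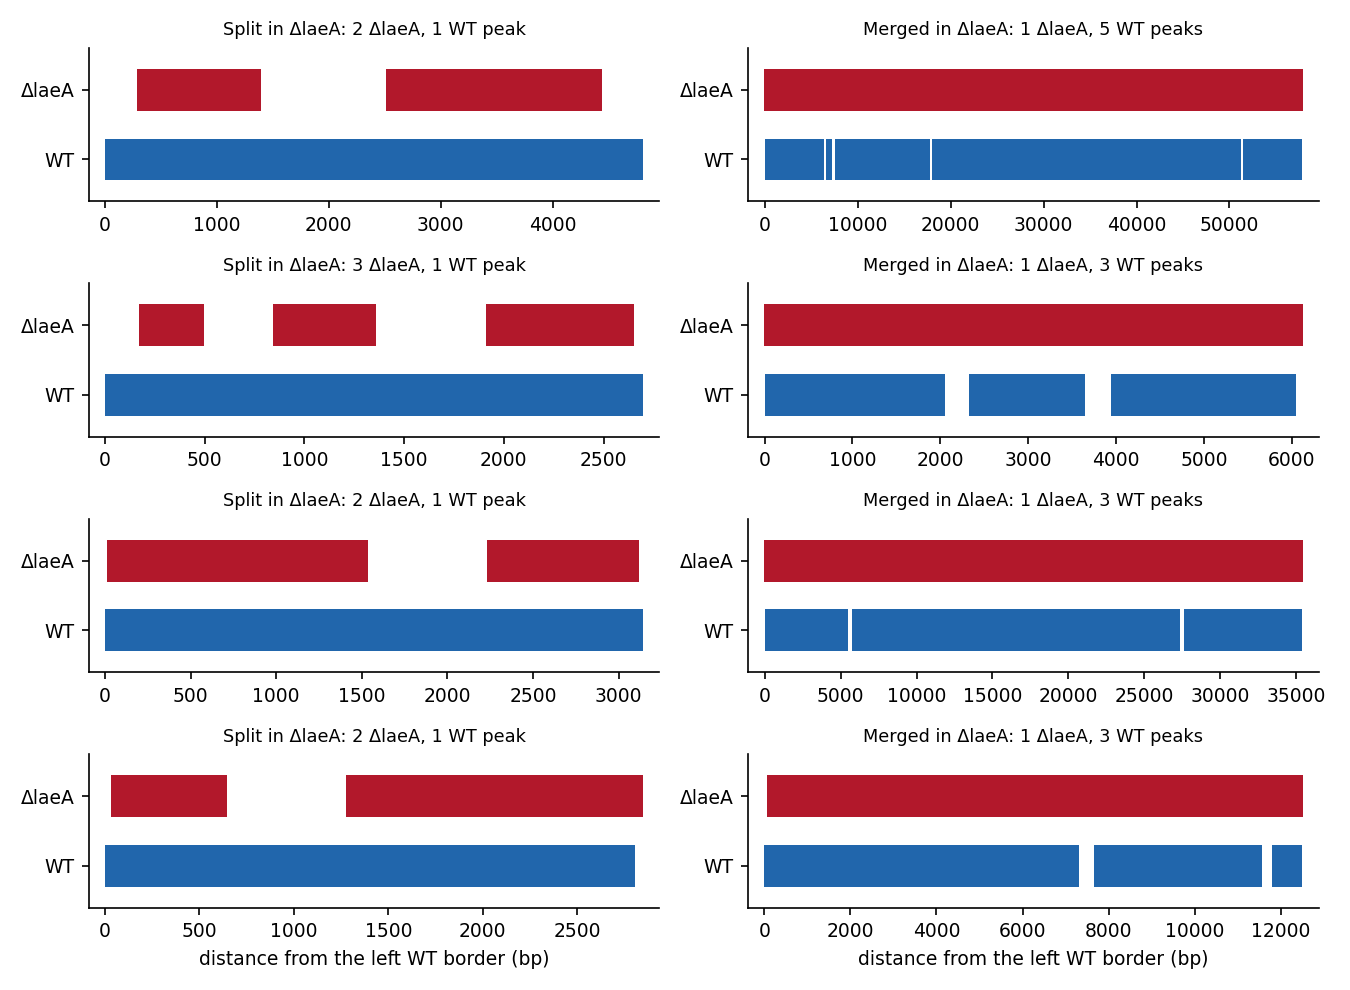
Peaks of ΔlaeA (upper track) and WT (lower track) in the 4 split groups with the most bases in opened gaps (left column) and the 4 merged groups with the most filled gaps (right column), drawn to scale against the distance from the left WT border in bp. The upper left panel shows the opened gap of 1119 bp with both outer borders further in, and the upper right panel the ΔlaeA peak of 57951 bp over 5 WT peaks.

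Several peaks of both strains formed 4 long groups, and their outlines were close in 3 of them. The groups from 367996 to 395087 (26819 bp in ΔlaeA, 26162 bp in WT), 1102785 to 1127251 (24145 bp in ΔlaeA, 24174 bp in WT) and 1127483 to 1158216 (30306 bp in ΔlaeA, 30494 bp in WT) had outer shifts between -27 and 85 bp. In the group from 2836283 to 2856031 (18918 bp in ΔlaeA, 19462 bp in WT) the left border moved in by 265 bp, and a gap of 516 bp opened in ΔlaeA at MYCTH_91274 and MYCTH_2295563. All 4 stood within the first 23 ranks of both lists.

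Peaks found in a single strain were short and weak. The 32 WT peaks without a partner measured 231 to 1324 bp, with a median of 427 bp, and stood between ranks 107 and 200 of the 200 WT peaks. Of these, 24 touch a gene, a share near that of the 1 to 1 groups (77 of 109). The longest ran from 900105 to 901428 (1324 bp, fold enrichment 1.79, rank 134) at MYCTH_2122106. The next were 862 bp from 2525769 at MYCTH_2114617, 732 bp from 962393 at no gene, 698 bp from 2781046 at MYCTH_2051640 and 682 bp from 2425033 at MYCTH_2295346. With the WT list cut to its 164 strongest peaks, as many as in ΔlaeA, 16 ΔlaeA peaks and 9 WT peaks had no partner, so that the excess in WT turned round. The direction of this change is set by the cut. Leaving out WT peaks alone can only lower the count in WT and raise that in ΔlaeA. A WT replicate 1 peak was found at 10 of the 32, a ΔlaeA replicate 1 peak at 3, and neither at 22. Of the 109 1 to 1 groups, whose joint lengths were greater, 59 held a WT and 32 a ΔlaeA replicate 1 peak.

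The 3 ΔlaeA peaks without a partner were also weak, and none touches a gene. They ran from 230581 to 230931 (fold enrichment 1.65, rank 118 of 164), from 1638630 to 1638877 (1.53, rank 134) and from 2080092 to 2080415 (1.59, rank 125). At the second, replicate 1 covered 248 bp in ΔlaeA and 183 bp in WT. The last has no replicate 1 peak of either strain.

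The order of fold enrichment was much alike in both lists, although the borders of weak peaks differed. Each matched group was given the rank of its strongest peak in each list. Over the 141 matched groups Spearman's rho was 0.88, and over the 109 1 to 1 groups 0.81. These are descriptions over groups of 1 library per strain, whose neighbours along the chromosome are not independent. The first 10 places of both lists shared 9 groups, the first 20 shared 17 and the first 50 shared 41. In replicate 1, where folds spanned a narrow range, rho over the matched groups was 0.17.

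The domain from 7207 to 41052 in ΔlaeA, near the left end of the chromosome, was first in both lists, with a fold enrichment of 7.01 in ΔlaeA and 4.66 in WT. Places 2 and 4 in ΔlaeA went to the 1 to 1 domains from 2574179 (5.94 in ΔlaeA; rank 9 and 3.90 in WT) and from 2920098 (5.58 in ΔlaeA; rank 8 and 3.92 in WT). Places 2 and 3 in WT went to the domains from 1639640 to 1667432 (rank 10 and 5.23 in ΔlaeA, 4.27 in WT) and from 2585423 to 2610013 (rank 8 and 5.29 in ΔlaeA, 4.18 in WT). Fold enrichment is a value within its list, so that the higher folds of ΔlaeA at strong domains are not read as a higher level of the mark. The widest change of place, as a share of the list, belonged to a short peak from 1411088 to 1411831, which stood at rank 53 of 164 in ΔlaeA and 156 of 200 in WT and touches no gene.

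**Figure D4:**
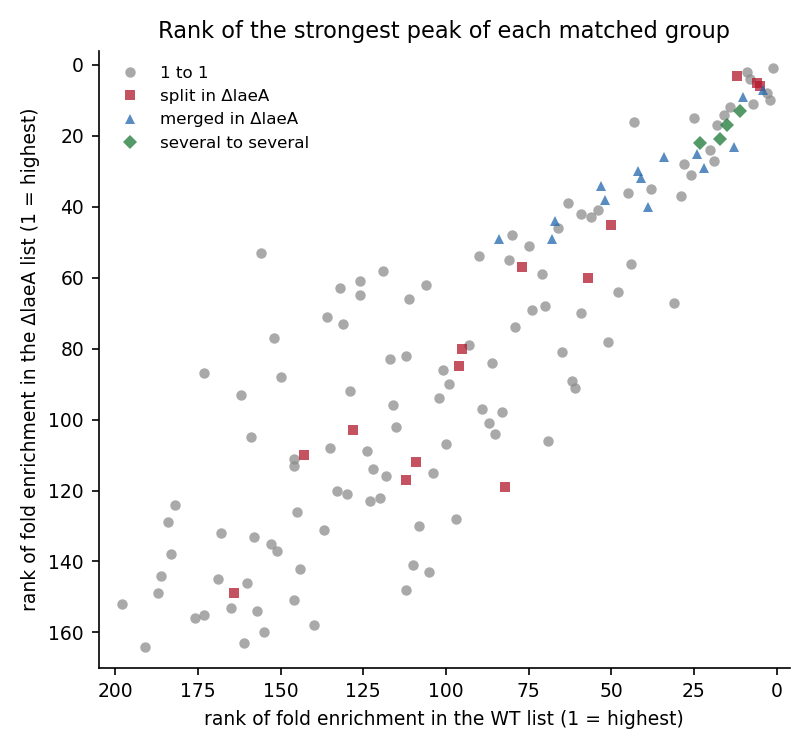
Rank of fold enrichment of the strongest peak of each of the 141 matched groups in the ΔlaeA list (vertical axis) against the WT list (horizontal axis), with rank 1 at the upper right. Merged and several to several groups lie in the upper right, with ΔlaeA ranks up to 49, split groups are spread from rank 3 to 149 in ΔlaeA, and the spread around the diagonal is wider among weak peaks.

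Neither strain was marked over most of the stretch. There were 176 unmarked stretches with 2245164 bp, or 73.4% of the positions, and a median length of 1305 bp. The 24 of at least 10000 bp held 1980717 bp, which is 88.2% of the unmarked bases, and 590 of the 609 genes that lie whole in unmarked sequence. The longest were 374568 bp from 1703616 to 2078183 with 110 whole genes, 247853 bp from 516867 to 764719 with 67, 237276 bp from 2102246 to 2339521 with 82, 226798 bp from 1411832 to 1638629 with 69, and 194670 bp from 1216418 to 1411087 with 57. At the other end, 49 unmarked stretches were under 500 bp. The gene laeA itself (MYCTH_2294559) lies in the fifth longest, 35175 bp from the nearest group, and the WT list held no peak closer to it.

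The marked blocks between these long stretches differed in how far they changed. The block from 262154 to 424600 was covered over 158733 bp in ΔlaeA and 156975 bp in WT, that from 1096457 to 1216417 over 116776 bp in ΔlaeA and 117123 bp in WT, and that from 1638630 to 1703615 over 61135 bp in ΔlaeA and 61260 bp in WT. In these blocks of long domains the strains were close. Blocks of short peaks went either way, but by unlike amounts. That from 2393594 to 2432337, with 12 groups and 11 touched genes, was covered over 9410 bp in ΔlaeA and 15695 bp in WT, and that from 2371141 to 2380676 over 1661 bp in ΔlaeA and 5374 bp in WT. Other blocks of short peaks were covered over more bases in ΔlaeA, such as that from 2536672 to 2546323 (2479 bp in ΔlaeA, 2251 bp in WT) and that from 2078184 to 2080415 (839 bp in ΔlaeA, 359 bp in WT). These gains, 228 and 480 bp, were small beside the changes of -6285 and -3713 bp in the blocks from 2393594 and 2371141. The gain of 228 bp includes 1 peak that was 556 bp longer in ΔlaeA, and that of 480 bp a ΔlaeA peak of 324 bp without a partner. The largest block, from 2781046 to 3044063 with 47 groups, was covered over 170437 bp in ΔlaeA and 180628 bp in WT.

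The replicate 1 lists, which were not used to make the groups, hold 134 peaks of ΔlaeA and 301 of WT in the stretch and cover 1.35% of its bases in ΔlaeA and 3.78% in WT. Bases marked in WT only in replicate 2 were covered more often by WT replicate 1. At the outer borders that WT alone marked, replicate 1 covered 6.17% of the bases in ΔlaeA and 25.6% in WT. Inside the gaps that ΔlaeA opened, the values were 7.27% in ΔlaeA and 26.3% in WT, and in WT peaks without a partner 2.70% in ΔlaeA and 18.4% in WT. In bases marked in both strains they were 3.62% in ΔlaeA and 9.08% in WT. The gaps that ΔlaeA filled were nearly free of replicate 1 peaks, with 0.119% in ΔlaeA and 0.699% in WT, and all bases of ΔlaeA only had 3.99% in ΔlaeA and 6.02% in WT.

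**Figure D5:**
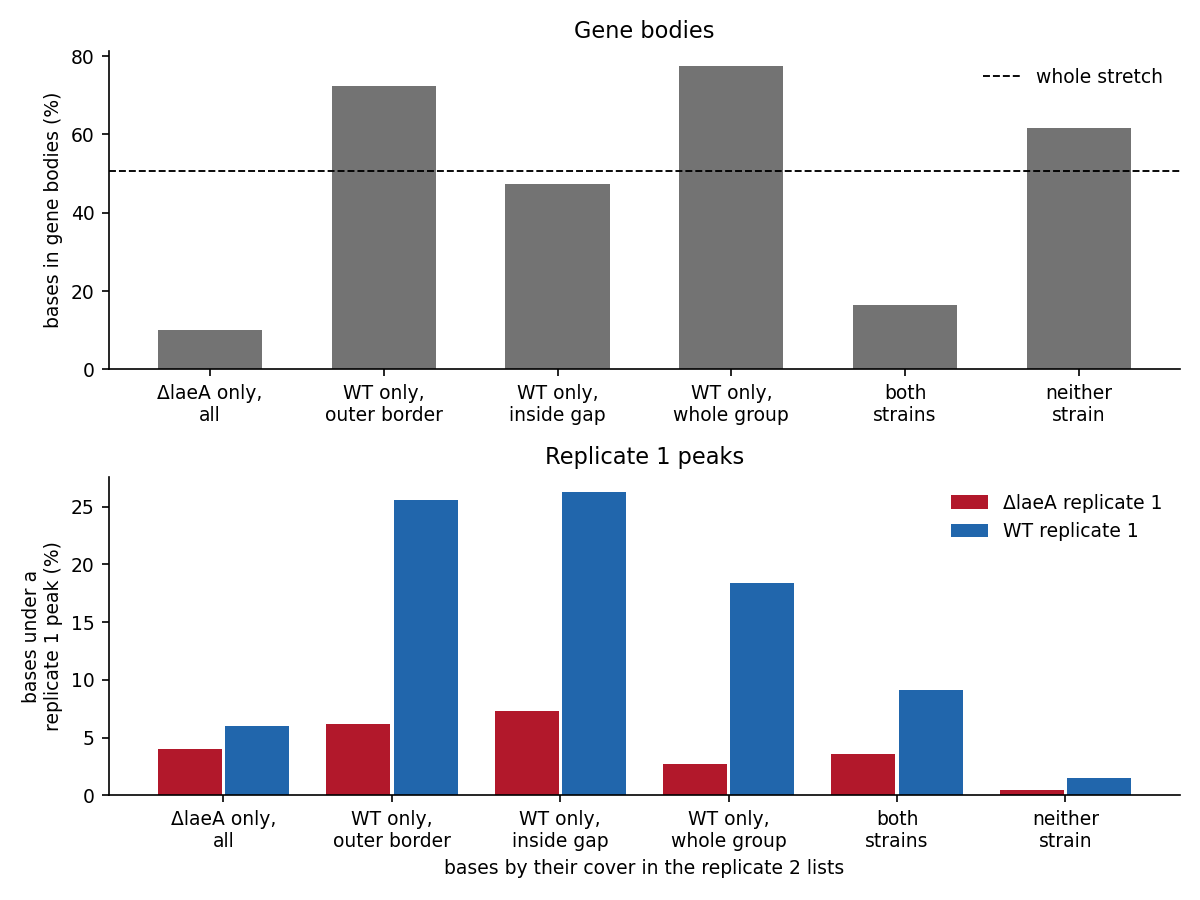
Share of bases in gene bodies (upper panel, %) and under a replicate 1 peak of ΔlaeA (red) and WT (blue) (lower panel, %), for bases sorted by their cover in the replicate 2 lists. The dashed line marks the 50.5% of all bases that lie in genes. Bases of WT only at outer borders stand at 72.2% in genes and 25.6% under WT replicate 1, against 9.95% in genes and 6.02% under WT replicate 1 for all bases of ΔlaeA only.

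WT replicate 1 covered more bases than ΔlaeA replicate 1 in the stretch as a whole too, so a higher cover by WT is not particular to the borders. Matched in the same way, the replicate 1 lists gave 61 1 to 1 groups in the stretch, of which 42 were shorter in ΔlaeA, with a median left shift of 89 bp and a median right shift of -24 bp. Over all chromosomes, 68.7% of the 1352 1 to 1 groups of replicate 1 were shorter in ΔlaeA. Of the WT replicate 1 peaks of all chromosomes, 70.9% had no ΔlaeA partner. An inward shift was thus also present in the second pair of libraries. No replicate 1 peak of the stretch passed a q of 0.05, as the highest −log10 q was 0.71 in ΔlaeA and 0.87 in WT. Both pairs share the labelled difference in antibody.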

How the data were processed

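Peak lists of the H3K9me3 ChIP libraries of ΔlaeA and WT, 2 per strain, were analysed. The labels gave strain and replicate number. Input libraries were not analysed here. According to the submitters' processing notes, the authors used Trimmomatic 0.36, Bowtie2 2.3.4.3, MACS2 2.1.2 and ChIPseeker 2.16.0, kept unique mappers and called peaks per library. The methods name other versions of some tools. Deposited pileups are a signal, the count of fragments over the summit. Deposited fold enrichments are a ratio of pileup to background, with a pseudocount of 1. Deposited scores are −log10 p and −log10 q from MACS2. No genome build is named.

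The ΔlaeA replicate 2 list used here ends on chromosome 1, and its last peak carries no q and was kept. Replicate 1 entries of the same start and end were joined. Borders are the 1-based starts and ends. Lengths of split or merged peaks are sums over the peaks. Groups were classed by joint length at 1000, 2000 and 5000 bp. The RefSeq annotation of ASM22609v1 supplied 9097 protein-coding genes, whose coordinates are not given. The last peak of each of the 7 chromosomes ended 1188 to 12771 bp past the last gene. The code recovered all 600 planted groups and both shifts of all 402 planted matched groups in simulated lists, which had no noise in the borders.

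The groups given singly were every split, merged, several to several and ΔlaeA-alone group, the 1 to 1 groups with the 5 largest shortenings, the 5 largest lengthenings, the 3 smallest summed shifts and the 3 highest folds per list, the 5 longest WT-alone groups, the 5 longest unmarked stretches, and laeA. The members and lists were chosen with earlier results of these data known. Classes of length and rank, blocks, the division by genes, the genes with a description, MYCTH_2313501, laeB and the peak of the widest change of place were chosen after the values were seen. Computations ran in Python 3.11.15 with pandas 2.3.3, numpy 2.4.6 and scipy 1.17.1, and plots were drawn with matplotlib 3.10.9.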

Additional observations from a re-analysis of the deposited data

How the results depend on the processing

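Of 234 values recomputed under alternatives for 30 results, 183 stayed close, 45 moved and 6 turned round. None moved when −log10 q had to reach 5, when peaks had to share 200 bp or 50% of the shorter peak, when the groups at the end of the list were left out, or when WT peaks had to reach the lowest −log10 q of ΔlaeA (added after the data were seen). The overlap rules do not enter covered bases, unmarked stretches or shares of bases in genes, so under them those values could not move. No paired analysis was possible because the results come from no test, with 1 list of this kind per strain.

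A fold enrichment of at least 3, which leaves the strong domains, turned the border results round. The median left shift was -24 bp, the median right shift 25 bp, 28.6% of 1 to 1 groups were shorter in ΔlaeA (45.5% of those that touch a gene, 10% of those that touch none) and the median log2 ratio was 0.0096. It gave 21 groups 1 to 1, 3 split, 2 merged, 0 several to several, 16 in ΔlaeA alone and 0 in WT alone. Some of the 21 were of another kind before the limit. There were 6 borders moved in, 27 kept and 43 unmarked stretches. Covered were 615434 bp in ΔlaeA, 433594 bp in WT and 424763 bp in both strains. Folds are values within a list, so the same limit cut the WT list further. The counts by kind cannot be told apart from that difference. In genes lay 25.8% of the bases of WT only and 7.96% of those of both strains. Cutting WT to equal numbers of peaks gave 16 groups in ΔlaeA alone, 9 in WT alone and 24.8% of the bases of ΔlaeA only in genes. Joining peaks up to 500 bp apart left 5 merged groups, 1 several to several and 81 kept borders. With a limit of 50 bp, 23 borders moved out and 88 were kept, and with 200 bp 45 moved in.

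Without replicate 2, the replicate 1 lists gave 61 groups 1 to 1, 5 split, 3 merged, 0 several to several, 59 in ΔlaeA alone and 229 in WT alone, 357 unmarked stretches, and 41289 bp in ΔlaeA, 115511 bp in WT and 18970 bp in both. The median right shift was -24 bp, 20 borders moved out, 48 were kept, the median log2 ratio was -0.44 and rho 0.169. Shorter in ΔlaeA were 65.7% of groups that touch a gene and 73.1% of those that touch none, and 32.8% of the bases of ΔlaeA only, 43.2% of WT only and 39.2% of both lay in genes. Of the 176 border segments of WT only, 7 held a ΔlaeA and 30 a WT replicate 1 peak at an overlap of 100 bp, against 17 and 57 at 1 bp, and 11 a ΔlaeA one at a −log10 p of at least 2. The cause of these changes was not tested. Unknown depth, called borders and a single list of this kind per strain limit every value.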
